A study of Homo sapiens with 12 samples.

Results

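The regions described here are positions of acetylated RNA that 2 lists of NAT10-overexpressing HaCaT cells held in common and that no vector control list held. HaCaT is an established line of human keratinocytes. Control cells received an empty vector and the other group received NAT10 overexpression plasmids, with 3 replicates of each and an immunoprecipitated (IP) and an input library per replicate. The labels do not say if replicates were separate cultures or if the plasmids were carried stably. A region is a peak of overexpression replicate 1 that shared at least 1 base with a peak of overexpression replicate 2 and overlapped no peak of control replicates 1, 2 and 3. Peaks on NAT10 itself were left out. Of 12143 peaks in the list of overexpression replicate 1, 992 met this rule (8.17%), on 853 of the 5797 genes with a peak there (14.7%), where the 6 lists hold 61804 peaks in all. Since overlap with 5 of the 6 lists chose the regions, their presence in overexpression lists and absence from control lists is a description and was not tested. Overexpression replicate 3 was the one list the rule did not use. Values given in a row are in the order of replicates 1, 2 and 3, and where a region has only 2 folds it had no peak in overexpression replicate 3.

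NAT10 is the enzyme that writes N4-acetylcytidine (ac4C) on RNA, on ribosomal RNA and transfer RNA and, as has been reported, on messenger RNA. In acetylated RNA immunoprecipitation sequencing, RNA fragments are pulled down with an antibody against ac4C, and a peak is a stretch where the pulled-down reads exceed the background. The authors give each peak a fold, the linear ratio of pulled-down signal to background, and their score is the negative log10 of the p-value times 10. A peak in 1 group and not in the other can also follow from the amount of the transcript or from read depth. No read counts were used here, so more RNA of a gene and more acetylation of it cannot be told apart.

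The 6 lists differed several-fold in length, from 3105 peaks in overexpression replicate 3 to 19261 in control replicate 2, and read depth is unknown. The authors' false discovery rate, read as percent, was 29.28 or higher for every peak of the 6 lists and 57.75 or higher for the regions in overexpression replicate 1. NAT10, the gene on the plasmids, carried 14, 14 and 15 peaks in the overexpression lists against 1, 2 and 2 in the control lists. HaCaT cells are keratinocytes, and 12 of 16 basal keratinocyte genes had a peak in overexpression replicate 1, while the markers of other cell types with a peak numbered 2 of 9 for melanocytes, 1 of 10 for fibroblasts, 2 of 8 for endothelium and 0 of 12 for immune cells. None of these few other markers with a peak held a region, where 14.7% of all genes with a peak there did, and they are too few to compare. In overexpression replicate 3, the shortest list, a peak lay on 3 of the 16 basal keratinocyte genes. The other markers with a peak in that list numbered 0 for melanocytes, 1 for fibroblasts, 0 for endothelium and 2 for immune cells.

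Some regions lay over an annotated transcription start of their gene, at its outer end or inside it, and their start windows are shown because they let the edge of a region be seen against the annotated start. Each window runs from 250 bases before to 30 bases after a RefSeq gene start (GRCh38.p14), 5′ to 3′ on the plus strand, which is the strand of these 4 genes. Capitals mark the bases inside the region. The first 3 are the regions over a start window of their own gene that also had a peak in overexpression replicate 3, and the 4th is the one with the most window bases covered among the 15 regions of highest fold named further on.
TYRO3, chr15:41558962-41559241: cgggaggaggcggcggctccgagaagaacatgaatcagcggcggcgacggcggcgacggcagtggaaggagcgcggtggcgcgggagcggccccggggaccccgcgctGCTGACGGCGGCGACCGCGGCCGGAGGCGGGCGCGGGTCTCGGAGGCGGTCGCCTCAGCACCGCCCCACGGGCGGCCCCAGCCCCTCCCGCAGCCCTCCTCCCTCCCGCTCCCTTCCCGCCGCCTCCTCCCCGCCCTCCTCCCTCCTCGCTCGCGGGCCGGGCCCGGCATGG
FZR1, chr19:3522706-3522985: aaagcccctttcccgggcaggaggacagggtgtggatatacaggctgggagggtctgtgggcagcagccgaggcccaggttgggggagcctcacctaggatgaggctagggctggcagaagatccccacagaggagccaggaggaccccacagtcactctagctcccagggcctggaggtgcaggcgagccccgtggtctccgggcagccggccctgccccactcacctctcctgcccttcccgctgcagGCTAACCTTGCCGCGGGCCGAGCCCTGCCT
MAST2, chr1:45803362-45803641: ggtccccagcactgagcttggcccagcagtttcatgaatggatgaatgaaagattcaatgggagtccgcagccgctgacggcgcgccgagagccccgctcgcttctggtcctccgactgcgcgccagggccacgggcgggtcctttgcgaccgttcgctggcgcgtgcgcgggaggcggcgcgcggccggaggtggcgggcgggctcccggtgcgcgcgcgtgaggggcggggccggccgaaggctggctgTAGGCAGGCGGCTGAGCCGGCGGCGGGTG
SEPT9, chr17:77451234-77451513: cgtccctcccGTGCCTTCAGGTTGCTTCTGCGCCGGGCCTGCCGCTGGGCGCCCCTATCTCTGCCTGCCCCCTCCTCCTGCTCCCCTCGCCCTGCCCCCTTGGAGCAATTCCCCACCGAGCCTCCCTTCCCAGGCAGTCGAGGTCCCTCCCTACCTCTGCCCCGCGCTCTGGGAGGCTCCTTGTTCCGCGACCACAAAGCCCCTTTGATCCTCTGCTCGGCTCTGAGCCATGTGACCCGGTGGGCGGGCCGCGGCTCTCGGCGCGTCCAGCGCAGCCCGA

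The FZR1 region began at 3522956, an annotated start inside the gene, whose span begins at 3506311. The MAST2 region began at 45803613, 1 base after the start of the gene's span. FZR1 encodes an activator of the anaphase-promoting complex, and MAST2 a serine/threonine kinase. The TYRO3 region began at 41559070, before the start of the gene's span at 41559212, so its capitals hold 172 of the bases of the window. The matching peaks on TYRO3 began later, at 41559238 in overexpression replicate 2 and at 41559312, past the window, in overexpression replicate 3. TYRO3 is a receptor tyrosine kinase. The SEPT9 region, on a septin gene that RefSeq lists as SEPTIN9, covered 270 bases of a window at an internal start of the gene. C made up 42.5%, 33.9%, 30.7% and 45% of the TYRO3, FZR1, MAST2 and SEPT9 windows. The median was 28.2% over 35116 start windows of the same length and 34.3% over the 69 that lay under a region. The pattern CNNCNNCNNCNNCNN, in which C recurs with 2 bases between, was sought on both strands with overlapping matches allowed. It was found on the printed strand 19 times for TYRO3, 4 times for SEPT9 and 0 times for FZR1 and MAST2, which held it 2 and 6 times on the opposite strand. On either strand, it was found in 67 of the 69 start windows that lay under a region (97.1%), against 68.9% of all windows and 92.3% of 1240 windows under any other peak of overexpression replicate 1. The median content of G and C was 72.5% in windows under a region and 70.4% in those under other peaks. Start windows were held for 671 of the 853 host genes, too few for a check over the whole set, which is therefore void, and these shares describe the windows held. A match is a description of the letters only.

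Among the 4382 peaks that overexpression replicates 1 and 2 shared, the 992 without a control peak were the smaller portion, at 22.6%. The other 3390 overlapped a control peak, 1672 of them one of control replicate 1, 2398 one of control replicate 2 and 2634 one of control replicate 3, and 1130 overlapped all 3. Control replicates 2 and 3 were the only list to remove 594 and 527 peaks, while control replicate 1 alone removed 85. The count of regions was accordingly 1586 without control replicate 2 and 1519 without control replicate 3, and it was 181 or 206 when overexpression replicate 1 or 2 was left out and the other was paired with overexpression replicate 3. With the groups turned round, 1144 of 10836 peaks of control replicate 3 (10.6%) overlapped control replicate 2 and no overexpression list. The lists that do the removing differ in length in each case, so these shares were set side by side with no test.

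A peak in overexpression replicate 3, the list not used to choose them, lay on 53 of the 992 regions (5.34%, 95% Clopper-Pearson interval 4.03 to 6.93), where 6.75% of all peaks of overexpression replicate 1 had one. The share was near that of all peaks and was not a property of the regions. Peaks of overexpression replicate 1 that overlapped exactly 1 of the other 4 lists can be set side by side by partner list. Those lists differed in length, from 4324 peaks in control replicate 1 to 19261 in control replicate 2, and no allowance was made for it. The share with a peak in overexpression replicate 3 was 5.34% where the partner was overexpression replicate 2, 9.16% (4.82 to 15.5, 12 of 131) where it was control replicate 1, 4.38% (3.29 to 5.70, 52 of 1188) where it was control replicate 2, and 7.24% (5.31 to 9.59, 44 of 608) where it was control replicate 3. The interval of the regions overlapped each of the other 3. Peaks that overlapped both overexpression replicate 2 and a control list had one in 13.0% (11.9 to 14.2, 442 of 3390), with an interval above that of the regions, and peaks found in none of the 4 lists in 3.05% (2.59 to 3.57, 153 of 5010). These intervals cover counting error over peaks only. Overexpression replicate 3 is 1 list, so there is no test over samples.

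**Figure D1:**
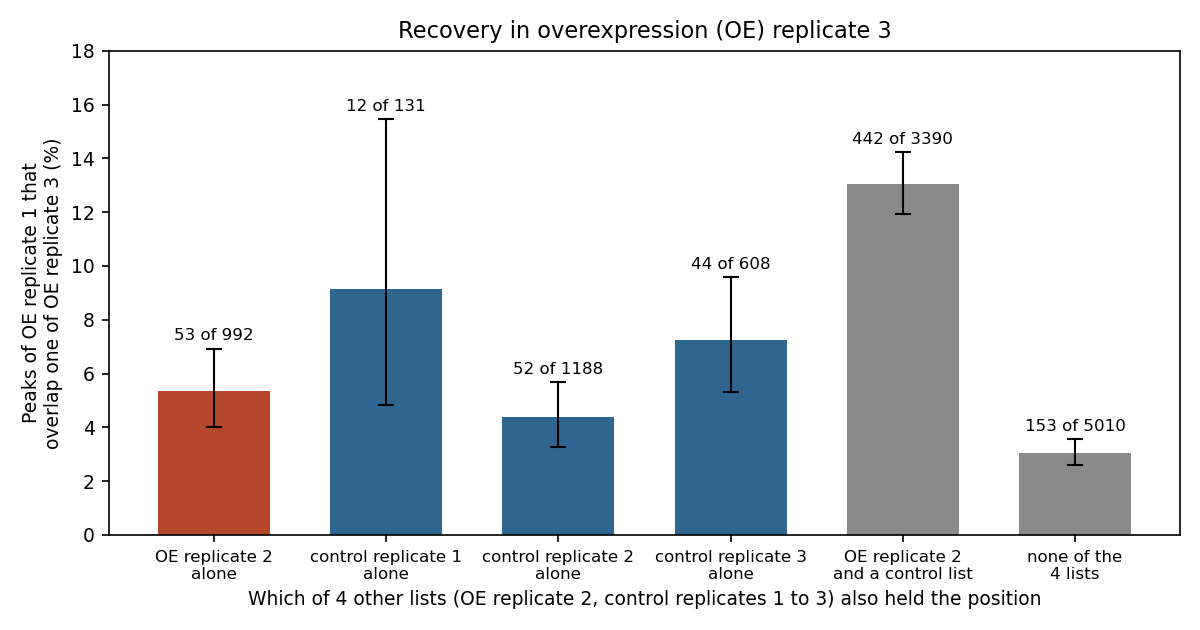
Share of peaks of overexpression (OE) replicate 1 that overlap a peak of OE replicate 3, by which of 4 other lists also held the position. Bars give percent, whiskers the 95% Clopper-Pearson interval, and the numbers above the peaks with an overlap of all in the class. The regions shared with OE replicate 2 alone stand at 5.34%, between the classes shared with control replicate 2 alone (4.38%) and control replicate 3 alone (7.24%).

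The regions were of ordinary strength for their lists. Their fold ran from 2.19 to 37.7 in overexpression replicate 1, with a median of 6.15 against 6.30 for all its peaks, and from 2.10 to 36.5 in overexpression replicate 2, with a median of 6.27 against 6.39. Peaks that overexpression replicate 2 and a control list shared had a median fold of 7.06 in overexpression replicate 1 and a median length of 235 bases, against 172.5 bases for the regions, which ran from 13 to 9147 bases. A score under 100 was held by 35.7% of the regions and by 20.6% of those shared peaks. Between these 2 classes, lower fold, lower score and shorter length went with the lower share recovered in overexpression replicate 3. The order was not the same in every class. Peaks in a control list and not in overexpression replicate 2 had a median fold of 5.97, and 37.9% scored under 100. Of them, 6.25% (5.38 to 7.22) were recovered in overexpression replicate 3. The part of fold, score and length in recovery was not tested. A fold of at least 10 was reached by 167 regions in overexpression replicate 1, by 170 in overexpression replicate 2 and by 57 in both. Across the 992 regions the folds of the paired lists had Pearson's r = 0.41 on the log2 scale and Spearman's rho = 0.41. The points are regions of 1 pair of lists and not replicates.

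**Figure D2:**
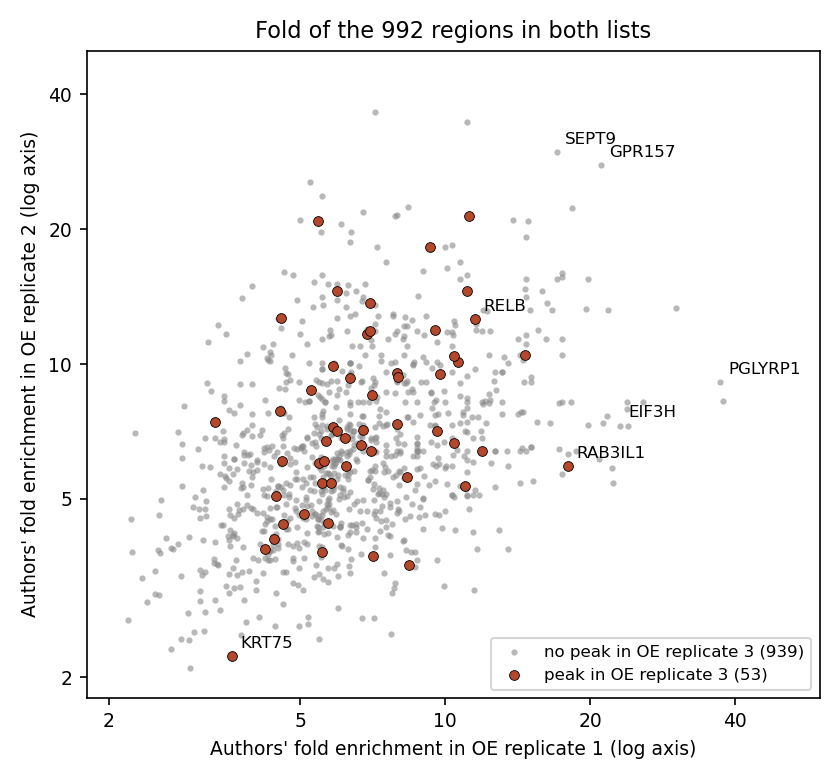
The authors' fold of each of the 992 regions in OE replicate 1 (x) and OE replicate 2 (y), both on log axes, with the 53 that also had a peak in OE replicate 3 in colour. The coloured points are spread through the cloud, and few regions (57) reach a fold of 10 in both lists.

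Of the 992 regions, 515 had both ends in common with a peak of overexpression replicate 2 (51.9%), 323 had 1 end and 154 neither. Among peaks that were also in a control list the share with both ends in common was 65.4%. Some regions share a partner: the 992 regions were matched to 985 distinct peaks of overexpression replicate 2, and the 53 to 52 of overexpression replicate 3. At the edge of the rule, the smallest overlaps with overexpression replicate 2 were 3 bases on GATAD2A, 9 on HMCES and 13 on IDNK, with folds of 7.15, 3.81 and 5.47. The nearest control peaks lay 5 bases from the regions of LRP5L and FBXW4 and 8 bases from that of TSC1. Just outside the rule, peaks of RTEL1, SH3TC1 and TRAIP overlapped a control peak by 1, 4 and 5 bases, and peaks of PTK2, SAMD4A and ICOSLG missed one of overexpression replicate 2 by 2, 4 and 5 bases. The nearest control peak was at a median of 3766 bases, and 93 regions (9.38%) had one within 500 bases.

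Most regions lay on genes that carried control peaks elsewhere. A peak in at least 1 control list lay on 789 of the 853 host genes, with 348 of them (40.8%) in all 3 control lists, against 33.6% of the 5797 genes with a peak in overexpression replicate 1. No control list had a peak on 7.50% of host genes and on 11.9% of those 5797 genes, so control peaks were common on both. Peaks away from the regions lay on 45.7%, 84.2% and 72.9% of host genes in the control lists, and on 74.7%, 75.6% and 33.5% in the overexpression lists. For the other genes with a peak in overexpression replicate 1, the shares were 39.1%, 77.9% and 65.5% in the control lists, 63.0% in overexpression replicate 2 and 23.7% in overexpression replicate 3. The share was higher for host genes in each of these 5 lists, control lists included. These shares were not tested.

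A smaller share of the regions than of other peaks lay near gene ends, a difference that was not tested. The RefSeq span of the host gene was known for 98.2% of them. The middle of a region lay within 10% of the span from either end in 28.0%, against 42.2% of peaks shared with overexpression replicate 2 and a control list and 35.3% of all peaks of overexpression replicate 1. Only 6 regions lay outside the span of their gene. Strand was known for 79.4% of the regions, which is too few for a check of gene starts over the set, and 69 of those 788 overlapped a window from 250 bases before to 50 after a start of their gene. Exon and untranslated-region annotation was not used here.

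**Figure D3:**
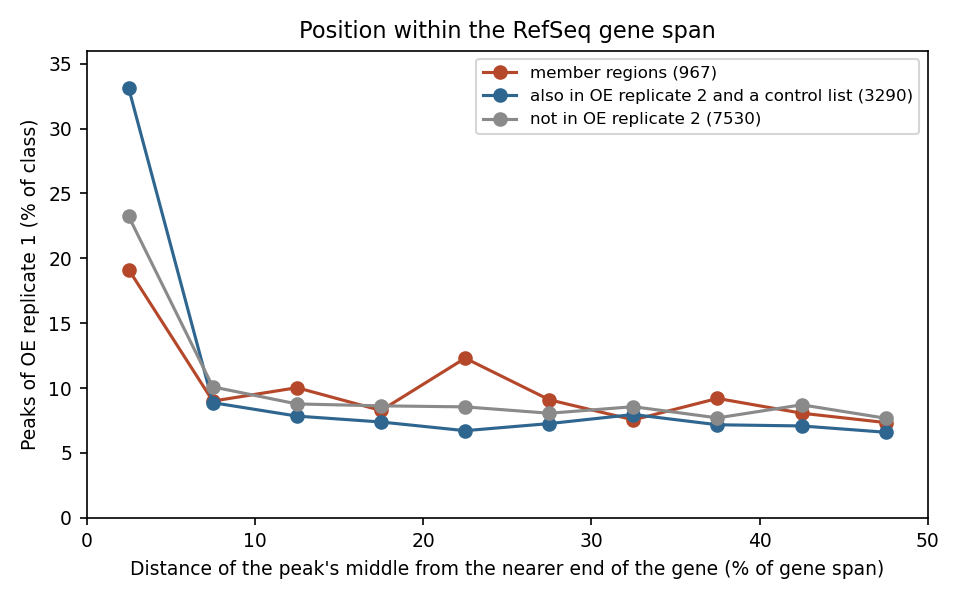
Distance of each peak's middle from the nearer end of its gene's RefSeq span, in percent of the span (x), against percent of peaks in the class (y), in bins of 5%. In the bin next to the gene end stand 19.1% of the 967 regions placed, against 33.1% of peaks also in OE replicate 2 and a control list and 23.2% of peaks not in OE replicate 2.

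The 15 with the highest fold rank in both lists included those on GPR157, ZBTB20, SEPT9, NBL1, CTBP2, KCNN4, BRPF1, IQSEC1, MINDY1, ICAM5, AOC2, ATG2A, AC068580.4 and SLC25A29. None of these 15 had a peak in overexpression replicate 3, where 5.34% of all 992 regions had one. A set of 15 is too small for those shares to be compared. On GPR157, an orphan G protein-coupled receptor (gene identifier 80045), the region spanned 9128645 to 9129102 on chromosome 1 and had folds of 21.0 and 27.8. Its last base is the annotated start of this minus-strand gene. The only control peak on GPR157 was 1 in control replicate 2, and the nearest control peak lay 24728 bases away. On ZBTB20, a zinc finger repressor, the folds were 18.3 and 22.3 at 114351123 to 114351580 on chromosome 3. BRPF1, a scaffold of histone acetyltransferase complexes, had 19.8 and 15.4, and the corepressor gene CTBP2 had 17.5 and 15.6. NBL1, an antagonist of bone morphogenetic proteins, had 17.5 and 16.0, with a peak of control replicate 2 294 bases away. Its region was 159 bases long, but the peak in overexpression replicate 2 covered only 16 of them. The calcium-activated potassium channel gene KCNN4 had 17.1 and 15.5. High folds in both lists are what the rule for these 15 selects. AOC2, a copper amine oxidase, had 14.7 and 15.5 and was the one gene of the 15 with no peak in any control list. Folds were less even elsewhere. The highest in overexpression replicate 1, on the heparan sulfate enzyme gene NDST1, was 37.7 against 8.28 in overexpression replicate 2, and the highest in overexpression replicate 2, on CHRNA10, a nicotinic receptor subunit, was 36.5 against 7.15 in overexpression replicate 1. NDST1 and CHRNA10 were named after their values were seen.

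The 53 regions with a peak in all 3 overexpression lists lay on 51 genes, and for 15 of them overexpression replicates 1 and 3 gave equal ends. Their median folds were 6.67, 7.10 and 6.95, and those of the other regions 6.11 and 6.25. The 12 that ranked highest in all 3 lists were on GPR146, KIAA0513, MAST2, RELB, ZCCHC2, TRPV1, ECSIT, KLC1, PHLDB3, LRP1, MED26 and RNF207. GPR146, a G protein-coupled receptor on chromosome 7, had 1 at 1057492 to 1057604 with folds of 11.1, 14.6 and 23.2. A neighbouring region at 1057751 to 1058607 overlapped the same peaks of overexpression replicates 2 and 3, and its fold was 5.96 in overexpression replicate 1. Peaks of control replicates 3 and 2 lay 662 and 10 bases from the first and the second. On the kinase gene MAST2 the folds were 9.53, 11.9 and 17.6, on TRPV1, the capsaicin and heat receptor, 10.4, 10.4 and 9.55, and on ZCCHC2 11.2, 21.3 and 9.66. The TRPV1 region ran from 3589807 to 3590105, but its peak in overexpression replicate 3 covered only 3589807 to 3589833. TRPV1 had 10 peaks in overexpression replicate 2 and 3 in control replicate 3, so the gene itself was not free of control peaks. LRP1, a large endocytic receptor, had folds of 6.98, 11.8 and 9.0 at its region, while the control lists held 2, 15 and 11 peaks elsewhere on the gene. ECSIT, an adaptor of Toll signalling and of respiratory complex I assembly, had 7.94, 7.33 and 12.01. MED26, a Mediator subunit, had 9.61, 7.10 and 9.93, with a control replicate 3 peak 405 bases away.

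RELB was the one gene with more than 1 separate region recovered in overexpression replicate 3. RELB is the subunit through which the noncanonical NF-kappa-B pathway, which regulates inflammation and lymphoid organ development, acts on transcription. It lies on chromosome 19 from 45001464 to 45038192 (gene identifier 5971) and held 3 regions. The region at 45011949 to 45012276 had folds of 11.5, 12.6 and 9.93, and that at 45025606 to 45025737 had 5.10, 4.63 and 14.1 with the same ends in all 3 lists. The other, at 45002949 to 45002996, had 7.54 and 7.30 and no peak in overexpression replicate 3. Over the whole gene the control lists held 0, 0 and 1 peaks and the overexpression lists 4, 4 and 2. These counts include the regions by which RELB was picked. Higher counts with overexpression thus follow in part from that choice and were not tested. GPR146 also had 2 regions with a peak in overexpression replicate 3, both on 1 shared peak.

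Several genes held groups of regions: 738 genes had 1, 100 had 2 and 15 had 3 or more. Those 15 were COL27A1 with 6, COL4A2 with 5, HERC2, ITGB5, RNF165 and SEPT9 with 4 each, and CTIF, IGF2R, JADE1, MLLT1, MYH14, PER2, RELB, SBNO2 and VAV2 with 3 each. Of the 54 regions on them, 39 had both ends in common with overexpression replicate 2 and 4 had a peak in overexpression replicate 3, 2 on RELB and 1 each on COL4A2 and SBNO2. On 11 of the 15 genes both overexpression replicates 1 and 2 had more peaks over the whole gene than any control list. The exceptions were HERC2, IGF2R, SBNO2 and VAV2, where control replicate 2 had 21, 16, 6 and 10 peaks. These genes were picked by their number of regions in overexpression replicates 1 and 2, so a surplus there follows from the rule. In overexpression replicate 3 they had 0 to 4 peaks each, which on 12 of the 15 was no more than in control replicate 1, the shortest control list. The exceptions were COL4A2, RELB and SBNO2.

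**Figure D4:**
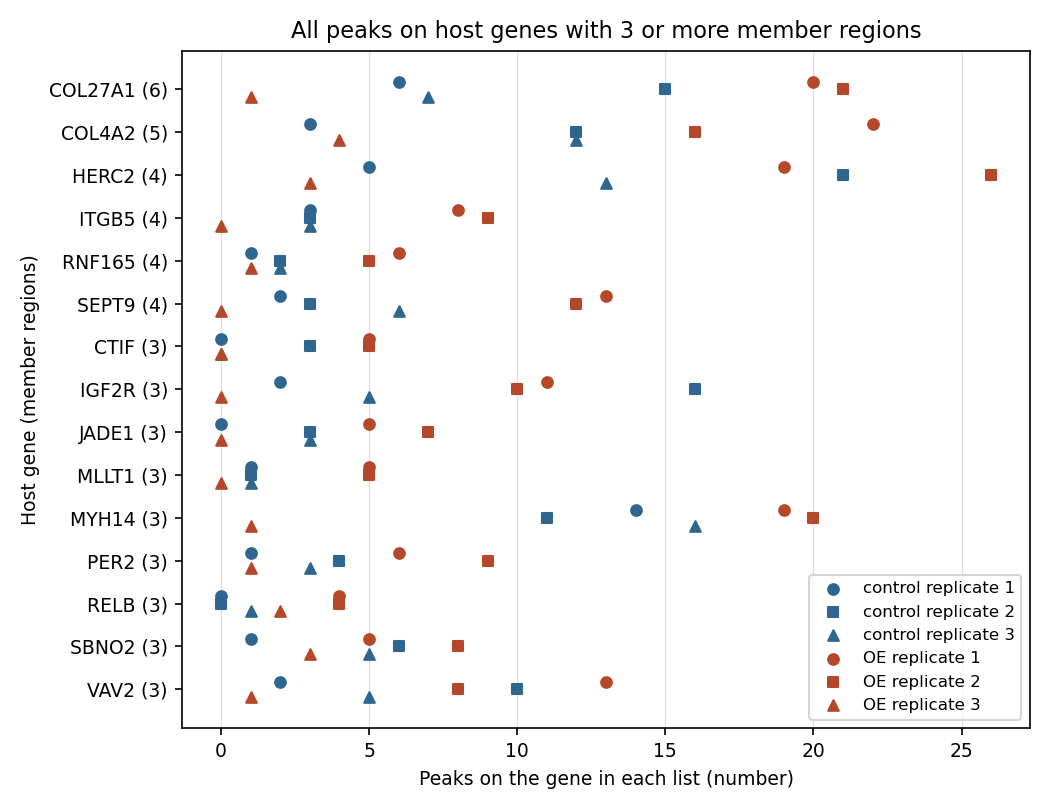
Number of peaks over the whole gene in each of the 6 lists for the 15 host genes with 3 or more regions, with the number of regions in brackets. OE replicates 1 and 2, which chose the regions, lie to the right of the control lists on 11 genes, while OE replicate 3 has between 0 and 4 peaks on each.

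Collagen genes led this group. COL4A2 encodes a chain of type IV collagen, the network of basement membranes that basal keratinocytes rest on, and COL27A1 a fibrillar collagen. COL27A1 (chromosome 9, 114154098 to 114312511) had 6, 15 and 7 peaks in the control lists against 20, 21 and 1 in the overexpression lists. Its 6 regions had folds of 5.06 to 14.5 in overexpression replicate 1 and 5.55 to 11.3 in overexpression replicate 2, and the ends of all 6 were equal in both lists. Of the 6, 4 were exactly 54 bases long, 1 was 108 and 1 was 66. As background, many exons that encode the triple helix of fibrillar collagens are 54 or 108 bases long. COL4A2 (chromosome 13, 110307284 to 110513209) had 3, 12 and 12 control peaks against 22, 16 and 4 with overexpression. Its regions were 36, 45, 75, 123 and 182 bases long. The one at 110489711 to 110489785 had folds of 14.7, 10.5 and 2.86. Over all genes named as collagen chains, a group picked after the values were seen, 16 of 99 peaks of overexpression replicate 1 were regions of the set (16.2%), against 8.17% of all its peaks, on COL16A1, COL17A1, COL18A1, COL27A1, COL4A2 and COL7A1. Without COL27A1 and COL4A2, which are named for their number of regions, the count was 5 of 57 (8.77%), near the share of all peaks. Lengths of 54 or 108 bases were held by 5 of the 16 collagen regions, all on COL27A1, and by 12 of the 976 regions on other genes (1.23%). Over all 99 collagen peaks, in the set or not, the share was 17.2%. Both ends were equal for 15 of the 16 collagen regions.

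The other genes with several regions included parts of the cytoskeleton and of cell adhesion. SEPT9 (chromosome 17) had 2, 3 and 6 control peaks against 13, 12 and 0 with overexpression. Its strongest region, at 77451244 to 77451528, had folds of 17.1 and 29.7 with equal ends, and is the one whose start window is printed above. ITGB5, the beta subunit of a vitronectin-binding integrin, had 3 peaks in each control list and 8, 9 and 0 in the overexpression lists. Its 4 regions had low folds, 3.42 to 4.83 in overexpression replicate 1 and 3.69 to 6.01 in overexpression replicate 2, and equal ends. PER2, a repressor of the circadian clock, had its strongest region at 238288494 to 238288609 on chromosome 2, with folds of 21.8 and 13.2, where it reached over an annotated start inside the gene. MYH14, a non-muscle myosin heavy chain, had 14, 11 and 16 control peaks and 19, 20 and 1 overexpression peaks, and 3 regions with folds of 5.10 to 7.55 in overexpression replicate 1. HERC2, a giant ubiquitin ligase, had 5, 21 and 13 control and 19, 26 and 3 overexpression peaks. Its region at 28299442 to 28299516 on chromosome 15 had folds of 21.7 and 7.66. HERC2 has partial copies in the genome, so its peaks are uncertain. CTIF, a factor of cap-binding-complex-dependent translation, had 0, 3 and 0 control and 5, 5 and 0 overexpression peaks, and the regions lay at least 40874 bases from a control peak.

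No control list had a peak anywhere on 64 of the host genes (7.50%), with 1 region each, and the same held for 11.9% of all genes with a peak in overexpression replicate 1. Their median folds were 6.13 and 5.69 in overexpression replicates 1 and 2, and 6 had a fold of at least 10 in both. Those 6 included AOC2, BMP4, S1PR5 and MAMDC2, named after their values were seen. BMP4, a bone morphogenetic protein, had folds of 17.5 and 11.4, and S1PR5, a receptor for sphingosine 1-phosphate, 10.4 and 12.5. A peak in overexpression replicate 3 at the same position was found for 2 of the 64, RAB3IL1 and KRT75, and anywhere on the gene for 8. RAB3IL1, an exchange factor for Rab GTPases, had folds of 17.98, 5.91 and 19.8 at 61908054 to 61908306 on chromosome 11. Its peak in overexpression replicate 3 was shorter and ended at 61908106. KRT75, a type II keratin of the hair follicle, had 3.61, 2.23 and 5.07 at 52433836 to 52434097 on chromosome 12, and its fold in overexpression replicate 2 is close to the minimum of the lists. Keratin genes have close relatives, so reads may be shared between them.

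Of the gene lists of keratinocyte biology and cell processes, chromatin modifiers had the most genes with a region. Beside these lists stand 14.7% of all genes and 8.17% of all peaks of overexpression replicate 1. Of 41 chromatin modifier genes with a peak there, 15 held a region (36.6%), but they carried many peaks, and 17 of their 184 peaks were regions (9.24%). All 15 also had a control peak elsewhere. HDAC5, a class II histone deacetylase, was the one with a peak in overexpression replicate 3, with folds of 5.44, 20.9 and 11.4 at 44088387 to 44088598 on chromosome 17. HDAC7, of the same class, had 11.9 and 11.9, the methyltransferase subunit gene SETD1B 11.1 and 8.39, and TET3, which oxidises 5-methylcytosine in DNA, 10.7 and 9.08. The ubiquitin list had 7 of 28 genes and 10 of 101 peaks, among them HERC1, HUWE1 and CUL7. RNA modification genes had 3 of 17. They were WTAP, a subunit of the m6A writer complex, with folds of 17.96 and 6.30, RBM15, another of its subunits, with 5.34 and 7.61, and the RNA editing gene ADARB1 with 15.1 and 6.53. Ribosome biogenesis, the pathway in which NAT10 acts on 18S ribosomal RNA, had 4 of 17 genes and 5 of 60 peaks (8.33%), on POLR1A, RRP12, TCOF1 and MDN1.

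**Figure D5:**
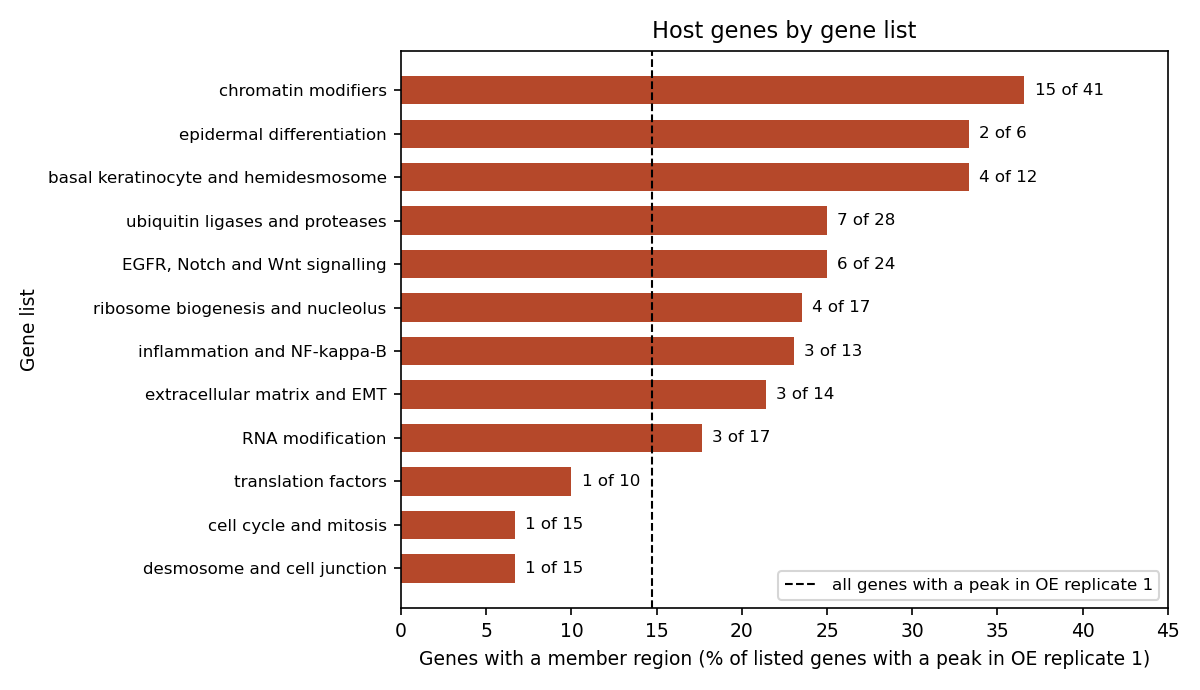
Genes with at least 1 region as percent of the listed genes with a peak in OE replicate 1, for the 12 lists with 5 or more such genes, and the same for all genes as a dashed line (14.7%). Chromatin modifiers stand highest at 36.6%, and the line counts genes whatever their number of peaks.

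Basal keratinocyte and hemidesmosome genes had 4 of 12, among them KRT14, COL17A1 and COL7A1, and 5 of 45 peaks (11.1%). KRT14, the basal type I keratin, had folds of 2.70 and 2.31 and no peak in any control list. Both folds are close to the minimum of their lists, 2.02 and 2.03, and reads may be shared with related keratin genes, as for KRT75. COL17A1, the transmembrane collagen of hemidesmosomes, had 2 regions with folds of 4.91 and 5.90 in overexpression replicate 1 and 5.75 and 6.01 in overexpression replicate 2, the first 243 bases from a control replicate 2 peak. Epidermal differentiation genes had 2 of 6, FLG and KRT75. Both regions of FLG, which encodes filaggrin of the cornified layer, overlapped 1 peak of overexpression replicate 2 with a fold of 6.70, and a control replicate 2 peak lay 144 bases from the nearer. FLG has long internal repeats, so its peaks are uncertain. Desmosome and junction genes had 1 of 15, the tight junction gene TJP1, with folds of 7.69 and 4.89. In the inflammation list, 3 of 13 genes held regions. Beside RELB they included NFKB1, the precursor of an NF-kappa-B subunit, with folds of 4.72 and 3.97. In the EGFR, Notch and Wnt list, 6 of 24 genes held a region and 6 of 60 peaks were regions. NOTCH1, a receptor that drives keratinocyte differentiation, had folds of 4.55, 12.7 and 6.95, beside 3, 10 and 6 control peaks elsewhere on the gene. NOTCH3 had 14.3 and 6.39 with a control replicate 2 peak 14 bases away, and its ligand gene JAG2 had 3.55 and 7.90. The matrix list had 3 of 14 genes, with fibronectin (FN1) and MMP2 beside COL4A2. Cell cycle genes had 1 of 15, the mitotic kinesin gene KIF11, translation factors 1 of 10, EIF3H with 23.0 and 7.28, and oxidative phosphorylation 0 of 1.

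The longest regions lay on FOXK1, CBX6 and NECTIN1. That on FOXK1, a forkhead transcription factor, spanned 9147 bases on chromosome 7 with folds of 4.77 and 5.38. That on CBX6, a Polycomb subunit, spanned 5712 bases on chromosome 22 with 5.99 and 5.66, and that on the adhesion gene NECTIN1 4306 bases on chromosome 11 with 2.70 and 3.88. A length of 1000 bases or more was found for 50 regions (5.04%), against 3.92% of all peaks of overexpression replicate 1. The share was 7.79% of peaks shared with overexpression replicate 2 and a control list, and 1.20% of peaks in none of the other 4 lists. A long peak can more easily overlap another, so the rule itself bears on this share. By chromosome, the share of its peaks that were regions ran from 5.79% on chromosome 4 to 10.1% on chromosome 22.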

How the data were processed

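Per the labels' protocols, RNA was isolated with Trizol and a low-input kit for whole RNA served for IP and input libraries alike. FastQC, cutadapt 1.9.3, HISAT2 2.0.4 and GRCh38 are named in the submitters' processing notes. The caller appears as MACS in the names of peaks, version not given in the sources used here. Each replicate has its own deposited list. Per the file headers, the score is the negative log10 p-value times 10, the fold a ratio and the false discovery rate, read here as percent, a value per peak. All 3 are the authors' deposited values, with a lowest score of 50 and a lowest fold of 2. Starts count from 0 in the files and are printed from 1. In control replicate 2 and overexpression replicate 2, 3 and 2 empty lines were skipped. The lists hold no strand, exon blocks or read counts, so depth is unknown. Gene names are those of the files. Of 853 host genes, 835 matched the RefSeq table (GRCh38.p14) and 671 its start windows, and sequences are from RefSeq.

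Overlaps were computed with Python 3.11.15, pandas 2.3.3 and scipy 1.17.1, and the rule was tested on simulated data with planted regions. Groups came from sample titles. The members and gene lists were chosen with earlier results of these data known. Named are the 15 regions with the highest lower fold percentile in overexpression replicates 1 and 2, the 12 highest with a peak in overexpression replicate 3, genes with 3 or more regions, regions on listed genes, the 3 longest and the 3 nearest to each edge of the rule. Other genes are marked as named after their values were seen. Some genes that these rules select are not reported here. No test over samples was made, since 5 of 6 lists chose the regions.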

Additional observations from a re-analysis of the deposited data

How the results depend on the processing

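The 992 regions became 515 with both ends equal to a peak of overexpression replicate 2, 357 with a score of at least 100 in both peaks, 242 with the 3105 highest-scoring peaks of each list and 64 with no control peak anywhere on the gene. Leaving out 1 list gave 181 to 1586 regions: the control lists left out in turn gave 1077, 1586 and 1519, and the overexpression lists 181, 206 and 992. With at least 50% of each peak shared, a fold of at least 4, no control peak within 500 bases, or overexpression replicate 2 as the starting list, counts were 827, 763, 899 and 967. The share with a peak in overexpression replicate 3 was 7.85% with those 3105 peaks of each list (19 of 242) and 3.13% on genes with no control peak (2 of 64). It was 5.66%, 6.75% and 6.52% without control replicates 1, 2 and 3, and lay within the interval of the main value under the other 6 alternatives run. The cause of these shifts was not tested. Alternatives by strand and exon block were not run, since the lists give neither. No paired analysis was possible because the results come from no test over samples. Unknown read depth limits every absence of a peak.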
